A study of Homo sapiens with 3 samples.

Results

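The CEP genes encode centrosomal proteins, named for the organelle in which they were found and not for a shared sequence. The members were all genes whose whole symbol is CEP followed by digits in the platform annotation, with CEP55 left out and probe sets of several symbols not used. There were 31 such genes among 19775 genes with a probe set of 1 symbol. Each was read by its brightest probe set, meaning the one with the highest mean log2 signal over the 3 arrays, so signal level chose the probe set. Earlier results of these arrays were known when the family was chosen, so its differences are given as a description, with no test.

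Expression was measured in U2OS, an established cell line from a human osteosarcoma, harvested 5 days after transduction with a retrovirus. The groups were cells given stable Set8b (labelled Set8_deltaPIP2), wild-type Set8b (Wt-Set8b) or the empty vector (pMSCV-vector), and each group had 1 array. The vector cells were thus transduced too, with no Set8b sequence. Set8b methylates histone H4 at lysine 20, and the altered form resists degradation through the CRL4-Cdt2 ubiquitin ligase. With 1 array per group there is no replicate check of any difference, so precision is limited by the array number. No p-value is given.

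The centrosome is the main microtubule organising centre of animal cells. It holds a pair of centrioles, which are copied once per cell cycle, inside a cloud of pericentriolar material that carries gamma-tubulin. The older (mother) centriole bears appendages and can seed a primary cilium, and a fibrous linker ties both centrioles together until mitosis. The levels of several of these genes vary over the cell cycle.

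The arrays themselves differed in a few respects. The median deposited signal was 38.6 on the vector array, 42.8 on the wild-type array and 41.7 on the stable Set8b array. The 18 hybridisation spike-in probe sets had median ratios to the vector array of 0.796 on the stable Set8b array and 1.01 on the wild-type one, so the stable Set8b array stood apart there. The 24 poly-A spike-in probe sets had ratios to vector of 0.467 and 0.441, so there the vector array stood apart, and the part of either in the values below was not tested. KMT5A, which encodes Set8, read 428 (vector), 532 (wild-type Set8b) and 252 (stable Set8b) by its brightest probe set, while its 4 probe sets past the filter ranged from -0.76 to 0.90 for stable Set8b over vector. For wild-type Set8b over vector all 4 lay above 0 (0.18 to 1.23), the way that label says, and they do not check the label of the stable Set8b array. CDKN1A, the cell cycle inhibitor p21, read 1052, 1891 and 6589.9 in the same order, and the proliferation marker MKI67 read 986, 878 and 307. Of 9 measured mesenchymal and bone markers 7 passed the filter on dim probe sets (a mean signal of 51.4), while COL1A2 and the osteoblast factor SP7 did not. Of 5 leukocyte and 5 epithelial markers, 2 each passed, with PTPRC and CDH1 below the filter and KRT19 at the floor on every array. On the vector, wild-type and stable Set8b arrays, the leukocyte markers that passed read 107, 76.0 and 200 (CD3D) and 99.7, 184 and 117 (CD79A). The epithelial ones read 431, 425 and 169 (EPCAM) and 52.6, 110.9 and 77.6 (KRT14). The summed signal of the leukocyte markers on the vector, wild-type and stable Set8b arrays was 255, 316 and 362, that of the epithelial markers 537.5, 569 and 362, and that of the mesenchymal markers 31620.3, 27415 and 36136. Their part in the differences was not tested. In RNA from a whole culture, fewer cells of a kind and less RNA per cell cannot be told apart.

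As most members read lower with stable Set8b, the promoter windows of the members at both ends of the range are shown. They were chosen by rule as the 4 lowest and 2 highest members in stable Set8b over vector whose probe sets past the filter all went the same way. The sequences are the 250 bases before the RefSeq transcription start, GRCh38.p14, read 5′ to 3′ on the gene's strand. Capitals mark matches, on either strand, to TTTCGCGC or TTTGGCGC (bound by E2F factors), TTTGAA or TTTAAA (the CHR element of cell cycle promoters) and CCAAT (bound by NF-Y). CEP152 lies at chr15:48811070-48811319, minus strand, CEP192 at chr18:12991112-12991361, plus strand, CEP44 at chr4:174283661-174283910, plus strand, CEP164 at chr11:117327604-117327853, plus strand and CEP290 at chr12:88142089-88142338, minus strand. CEP78 was also among the 4 lowest, but the RefSeq windows used here held none for it. The first 3 below had lower signal with stable Set8b, and the last 2 had higher signal.
CEP152: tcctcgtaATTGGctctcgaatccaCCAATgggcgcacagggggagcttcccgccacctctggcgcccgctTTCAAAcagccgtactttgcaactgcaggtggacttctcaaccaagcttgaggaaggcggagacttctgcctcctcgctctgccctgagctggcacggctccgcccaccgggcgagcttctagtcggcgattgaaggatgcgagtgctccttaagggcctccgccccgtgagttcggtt
CEP192: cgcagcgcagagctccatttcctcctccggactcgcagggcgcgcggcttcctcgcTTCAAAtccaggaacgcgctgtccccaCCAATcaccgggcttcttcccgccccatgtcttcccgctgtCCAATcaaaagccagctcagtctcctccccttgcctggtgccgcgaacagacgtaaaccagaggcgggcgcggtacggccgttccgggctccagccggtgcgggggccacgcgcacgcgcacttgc
CEP44: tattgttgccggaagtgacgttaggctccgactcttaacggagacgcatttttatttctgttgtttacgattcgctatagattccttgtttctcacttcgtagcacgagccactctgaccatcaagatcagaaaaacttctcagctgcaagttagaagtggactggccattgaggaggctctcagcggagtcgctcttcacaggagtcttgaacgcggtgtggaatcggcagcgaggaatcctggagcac
CEP164: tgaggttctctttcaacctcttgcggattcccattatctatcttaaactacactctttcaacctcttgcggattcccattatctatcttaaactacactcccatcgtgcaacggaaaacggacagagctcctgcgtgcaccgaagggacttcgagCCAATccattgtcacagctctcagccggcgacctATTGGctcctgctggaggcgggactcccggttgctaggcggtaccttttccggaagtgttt
CEP290: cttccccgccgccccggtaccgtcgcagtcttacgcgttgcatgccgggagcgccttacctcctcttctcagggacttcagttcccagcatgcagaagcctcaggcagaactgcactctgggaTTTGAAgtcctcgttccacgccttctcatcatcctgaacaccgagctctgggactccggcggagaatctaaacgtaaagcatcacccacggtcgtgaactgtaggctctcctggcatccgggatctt

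In the lowest member, CEP152, the window held CCAAT on both strands and TTTGAA on the opposite strand. CEP192 held CCAAT in 2 places and TTTGAA on the opposite strand, and CEP44 held no match. CEP164 held CCAAT on both strands, and CEP290 held TTTGAA. So matches stood at both ends of the range. Of the 31 members 28 had a window in the RefSeq table, 35 windows in all since 6 genes had several starts. CCAAT stood in 18 of the 35 windows (51.4%), against 32.9% of 14149 windows of genes past the filter and 32.0% of all 35116 windows. Either CHR motif stood in 10 windows (28.6%), against 15.5% and 21.9%. TTTCGCGC stood in 3 windows (8.57%), those of CEP57, CEP68 and CEP112, against 0.693% and 0.439%, and TTTGGCGC in 0. Windows of 1 gene are not independent of each other, and a match of letters does not show binding.

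Most CEP genes read lower with stable Set8b than with vector, by modest amounts. Of the 31 members 26 lay below 0 and 5 above, with a median log2 difference of -0.54 and a range of -1.57 to 0.32. Below 0 lay 46.1% of all genes and 50.6% of the 11783 genes past the filter, whose median was -0.01. At least 1.5-fold lower were 14 members, against 18% of all genes and 14% of genes past the filter, and no member was 1.5-fold higher (19.1% and 13.6%). At least 2-fold lower were 2 members, CEP152 and the dim CEP15, against 9.15% of all genes and 4.81% of those past the filter, so the 2-fold count lay near the background. The counts below 0 and past 1.5-fold lower stood above the background, a difference that has no test here. The brightest probe set passed the filter in 30 members, and in CEP15 it did not. By the brightest probe set no member was 2-fold higher, against 10.3% of all genes and 5.23% past the filter. Without probe sets ending in _x_at or _s_at 2 were, CEP15 and CEP44, both by probe sets below the filter.

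**Figure D1:**
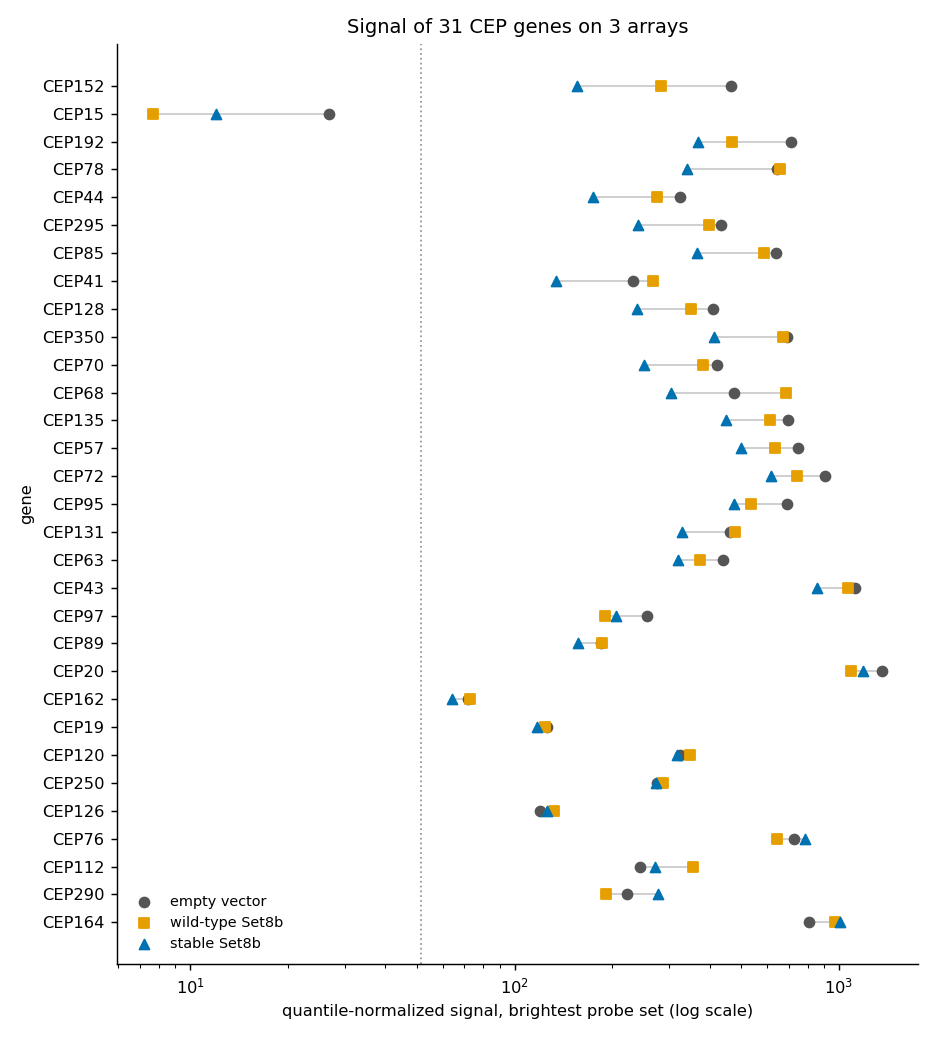
Quantile-normalized signal (log axis) of the brightest probe set of each of 31 CEP genes on the vector (circles), wild-type Set8b (squares) and stable Set8b (triangles) arrays, ordered by the difference of stable Set8b from vector, with a dotted line at the filter signal of 51.4. The triangle is the leftmost mark in 23 of 31 genes, and CEP152 spans the widest range among genes past the filter, from 465 down to 156.

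Stable Set8b was the lowest of the 3 arrays in 23 of the 31 members, against 33.8% of all genes and 41.3% of those past the filter. The order vector, wild-type, stable from highest to lowest held in 15 members, against 16.9% and 20.7%. The array of wild-type Set8b was the highest and that of stable Set8b the lowest in 8 members, against 16.9% of all genes and 20.6% of those past the filter, so that count lay near the background. The 8 members in which stable Set8b was not the lowest were CEP15, CEP20, CEP76, CEP97, CEP112, CEP126, CEP164 and CEP290. These orders are those of the brightest probe sets. Another probe set past the filter had stable Set8b the lowest in CEP20, CEP76 and CEP97. In CEP43, CEP68, CEP70, CEP85, CEP89, CEP250 and CEP295, another probe set past the filter did not have it the lowest.

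The members that build centrioles included the lowest ones. CEP152, which together with CEP192 brings the kinase PLK4 to the centriole to start duplication, read 465 on the vector array, 284 on the wild-type array and 156 on the stable Set8b array. The 3 arrays were thus stepped, with log2 differences of -1.57 for stable Set8b over vector (2.97-fold lower), -0.86 for stable over wild-type and -0.71 for wild-type over vector. Its other 4 probe sets were below the filter. In them the differences of stable Set8b over vector were -2.04, -1.88 and -1.37, and the last was at the floor on both arrays. CEP192, a scaffold that also recruits pericentriolar material, read 713, 469 and 367 in the same order of arrays, with differences of -0.96, -0.35 and -0.60. It had 1 probe set, and its step from vector to wild-type was larger than that from wild-type to stable.

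CEP63 and CEP57 are partners of CEP152 around the centriole wall. CEP63 read 439 on the vector array, 374 on the wild-type array and 319 on the stable Set8b array, a difference of -0.46 for stable Set8b over vector, and its second probe set past the filter was at -0.84. CEP57 read 750.3, 637 and 497.5 (-0.59), its 5 probe sets ranging from -1.15 to -0.58. Both genes had the same order of arrays as CEP152, with smaller differences. CEP135, which helps build the centriole's inner cartwheel, read 694.5, 611 and 449, a difference of -0.63. CEP85, a binding partner of the duplication factor STIL, read 641, 587 and 365 (-0.81), and its other probe set was at -0.31.

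CEP295 and CEP44 act when a new centriole becomes able to organise microtubules. CEP295 read 433 on the vector array, 398 on the wild-type array and 240.4 on the stable Set8b array, a difference of -0.85, but its other 2 probe sets past the filter were at -0.10 and 0.32. CEP44 read 323, 274 and 175, a difference of -0.89, and its second probe set was at -0.64. Both of these CEP44 probe sets end in _x_at and may read other transcripts too. Its remaining probe set, below the filter on all 3 arrays and at the floor with vector, was at 1.85. CEP97, which caps the growing end with CCP110, read 257, 189.6 and 205 (-0.32), so wild-type was lowest by this probe set, ending in _x_at. The other CEP97 probe sets past the filter read 78.6, 75.2 and 58.9, and 61.1, 58.0 and 48.6, with stable Set8b the lowest. CEP120, needed for centriole elongation, read 324, 348 and 317, with all 3 arrays close (-0.03). CEP76, which limits extra rounds of duplication, read 728, 645 and 787 by a probe set ending in _f_at (0.11), whereas its other probe set was at -0.61, so its direction was not settled. Of these 11 centriole assembly members 10 lay below 0 for stable Set8b over vector and 7 passed 1.5-fold, and their median was -0.63. For these role groups too, 46.1% of all genes and 50.6% of those past the filter lay below 0, and 18% and 14% were at least 1.5-fold lower.

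**Figure D2:**
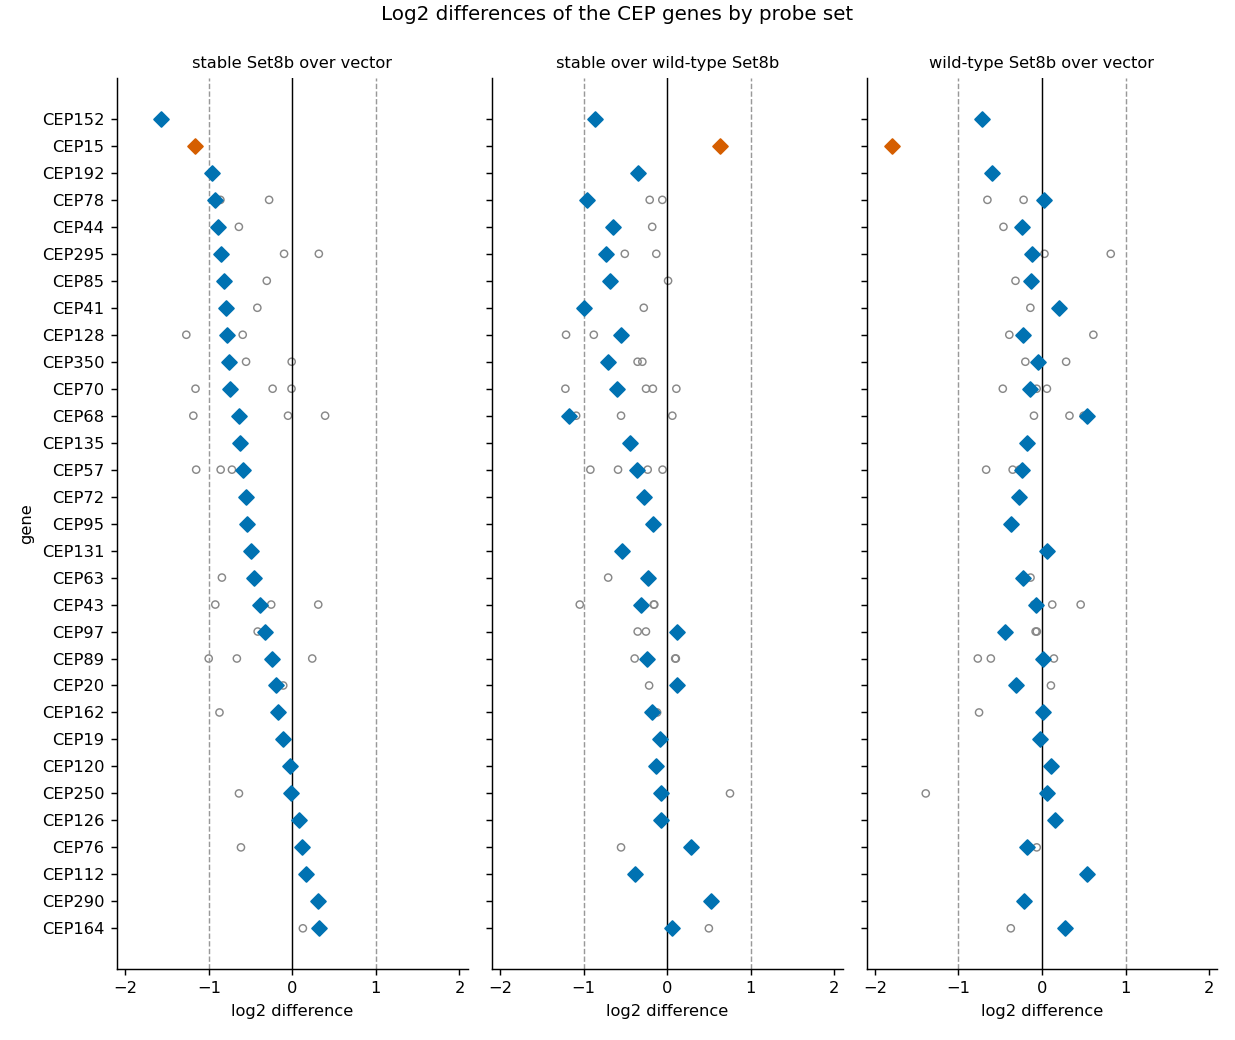
Log2 difference of each CEP gene in the 3 comparisons, by the brightest probe set (diamonds, orange where it is below the filter) and by its other probe sets past the filter (open circles), with dashed lines at 2-fold. Diamonds lie left of 0 for 26, 25 and 20 of 31 genes from the left panel to the right, and the circles show how far probe sets of 1 gene differ.

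Among members of the appendages and distal end of the mother centriole, 6 of 7 lay below 0 and 2 of them passed 1.5-fold (18% of all genes, 14% past the filter), and their median was -0.24. CEP128, a subdistal appendage protein, read 408 on the vector array, 349 on the wild-type array and 238 on the stable Set8b array (-0.78), and its other probe sets past the filter lay between -1.27 and -0.59. CEP350, a large microtubule-binding protein, read 693.5, 671 and 410.5 (-0.76), with its other probe sets past the filter at -0.55 and -0.01. By the brightest CEP350 probe set, the vector and wild-type arrays were close and the stable array stood below both. The others read 646.7, 563.3 and 440.6, and 52.3, 63.9 and 52.0, so the place of wild-type was not settled. CEP43, a partner of CEP350, read 1122, 1065 and 857 (-0.39), and its other probe sets ranged from -0.92 to 0.31, the last being the only one past the filter that does not end in _x_at or _s_at. CEP20, a relative of CEP43, read 1357.5, 1093 and 1190.3 (-0.19), and CEP19, which CEP350 and CEP43 bring to the ciliary base, read 126, 124.5 and 117 (-0.11). The distal appendage proteins were on both sides. CEP89 read 185, 186 and 157 (-0.24), with its other probe sets past the filter at 0.24, at -0.66 and, by the third (84.3, 55.2 and 42.1), at 2-fold lower. CEP164 read 806, 972 and 1008 (0.32), the highest difference of the family, with its second probe set past the filter at 0.13.

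The linker between both centrioles was read by 2 members. CEP250, which anchors it at the centriole ends, read 275 on the vector array, 287 on the wild-type array and 273 on the stable Set8b array (-0.01), but its second probe set past the filter read 147, 55.9 and 94.2. CEP68, a linker fibre protein, read 474, 685 and 304. Its wild-type array was the highest and its stable array the lowest, so that stable over wild-type Set8b was -1.17, the lowest difference of the family in that comparison. Its 4 probe sets past the filter ranged from -1.19 to 0.39 for stable Set8b over vector, so its direction against vector was not settled. For stable over wild-type Set8b these 4 ranged from -1.17 to 0.06, with 3 of them below 0.

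Of the 7 members of the cilium, transition zone and centriolar satellites, 5 lay below 0 for stable Set8b over vector, with a median of -0.49, and 2 were at least 1.5-fold lower (18% of all genes, 14% past the filter). CEP78, a protein of the centriole's distal end, read 645 on the vector array, 658 on the wild-type array and 339 on the stable Set8b array (-0.93), and its other probe sets were at -0.86 and -0.28. CEP41, which promotes modification of ciliary tubulin, read 232, 267 and 134 (-0.79), and -0.42 by its second probe set past the filter. By the brightest probe sets of both genes, vector and wild-type were close and stable Set8b was lower. The other probe sets of CEP78 instead read 547, 470.0 and 451, and 188, 119.9 and 104, with the wild-type array nearer to stable Set8b. The second CEP41 probe set past the filter read 152.5, 138.5 and 114.1, with wild-type between the other arrays. The place of wild-type was thus not settled. The satellite proteins CEP72 and CEP131 were lower by less. CEP72 read 904.5, 745 and 616 (-0.55), and CEP131 read 461, 479 and 328.5 (-0.49). The transition zone protein CEP162 read 72, 72.7 and 64.1 (-0.17), near the filter level, with -0.87 by its other probe set. CEP126, a microtubule-organising protein, read 119.5, 133 and 126 (0.08), with all 3 arrays close. CEP290, the transition zone scaffold, read 223, 192 and 276 (0.31), so its stable Set8b array was the highest.

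The remaining 4 members have other or less settled roles. CEP70, which binds gamma-tubulin and helps organise microtubules, read 421 on the vector array, 381 on the wild-type array and 251 on the stable Set8b array (-0.75), and its 5 probe sets ranged from -1.16 to -0.01. CEP95 read 691, 535 and 475 (-0.54). CEP112 read 243, 354 and 271 (0.16), with wild-type the highest. CEP15 read 26.8, 7.7 and 12.0, all below the filter and the wild-type value at the floor, so no direction is given for it. Its other probe set went the opposite way, at 1.92.

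The probe sets not used by the rule give a second reading of the same arrays, and they are not independent of them. The 19 members with several probe sets past the filter had 36 others, of which 31 lay below 0 for stable Set8b over vector, against 52.6% of all 8763 such probe sets of any gene, with a median of -0.57 against -0.03. At least 2-fold lower were 5 of the 36, against 5.07%. For stable over wild-type Set8b 29 of the 36 lay below 0 (50.3% of all), and for wild-type over vector 25 (54.2%). For stable Set8b over vector, every probe set past the filter lay below 0 in 13 of these 19 members. Every one lay above in 1 (CEP164), and in 5 they were mixed. These counts were 10, 1 and 8 for stable over wild-type Set8b, and 6, 0 and 13 for wild-type Set8b over vector. The matching shares over all genes with several probe sets were not computed, so these counts cannot be read as particular to the family. The spread between probe sets of 1 member was an SD of 0.43 for stable Set8b over vector, against 0.39 over 5357 genes with several. Many differences of single members are smaller than that, and this spread does not cover the spread between cultures.

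Stable over wild-type Set8b asks what differs between the degradation-resistant and the degradable form. It shares the stable Set8b array with the comparison above. Of the 31 members 25 lay below 0, against 47.1% of all genes and 51.4% of those past the filter, with a median of -0.31. At least 1.5-fold lower were 9 members, against 18.5% of all genes and 14.4% past the filter. They were CEP68, CEP41 (-0.99), CEP78 (-0.96), CEP152 (-0.86), CEP295 (-0.73), CEP350 (-0.71), CEP85 (-0.69), CEP44 (-0.65) and CEP70 (-0.60). Other probe sets past the filter were at -0.28 in CEP41, -0.06 and -0.21 in CEP78, 0.01 in CEP85 and -0.18 in CEP44. Those of CEP295 were at -0.13 and -0.51, and those of CEP350 at -0.35 and -0.30. None of these passed 1.5-fold. The 5 probe sets of CEP70 ranged from -1.22 to 0.11, and the 4 of CEP68 past the filter from -1.17 to 0.06. CEP152 had no other past the filter. At least 2-fold lower was 1 member, CEP68, against 9.55% and 4.8%, and the dim CEP15 was 1.5-fold higher, against 18.4% and 12.9%. By the brightest probe set no member was 2-fold higher (9.74% and 4.45%). CEP290 (0.53) and CEP76 (0.29) were the next highest.

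Wild-type Set8b over vector asks what the degradable enzyme does when added, and it shares the vector array. Here 20 members lay below 0 and 11 above, against 45.6% of all genes and 48.7% of those past the filter below 0, with a median of -0.13. At least 1.5-fold lower were 3 members, CEP152 (-0.71), CEP192 (-0.60) and the dim CEP15, against 12.3% of all genes and 4.11% past the filter. Only CEP15 was 2-fold lower, against 6.65% and 0.653%. No member was 1.5-fold higher (13.7% and 5.57%) or 2-fold higher (7.39% and 1.02%). The centriole assembly members lay below 0 in 10 of 11 cases, with a median of -0.23, CEP120 being the other at 0.10. The members of the cilium, transition zone and satellites lay below 0 in 2 of 7, with a median of 0.03. These small values depended on the scaling. With arrays centred on their medians CEP78 (-0.12), CEP131 (-0.09) and CEP162 (-0.05) turned below 0, while CEP41 (0.08) and CEP126 (0.05) stayed above. In the whole family 26 members then lay below 0. The highest members were CEP112 at 0.54 and CEP68 at 0.53. Whether the role groups differ was not tested.

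**Figure D3:**
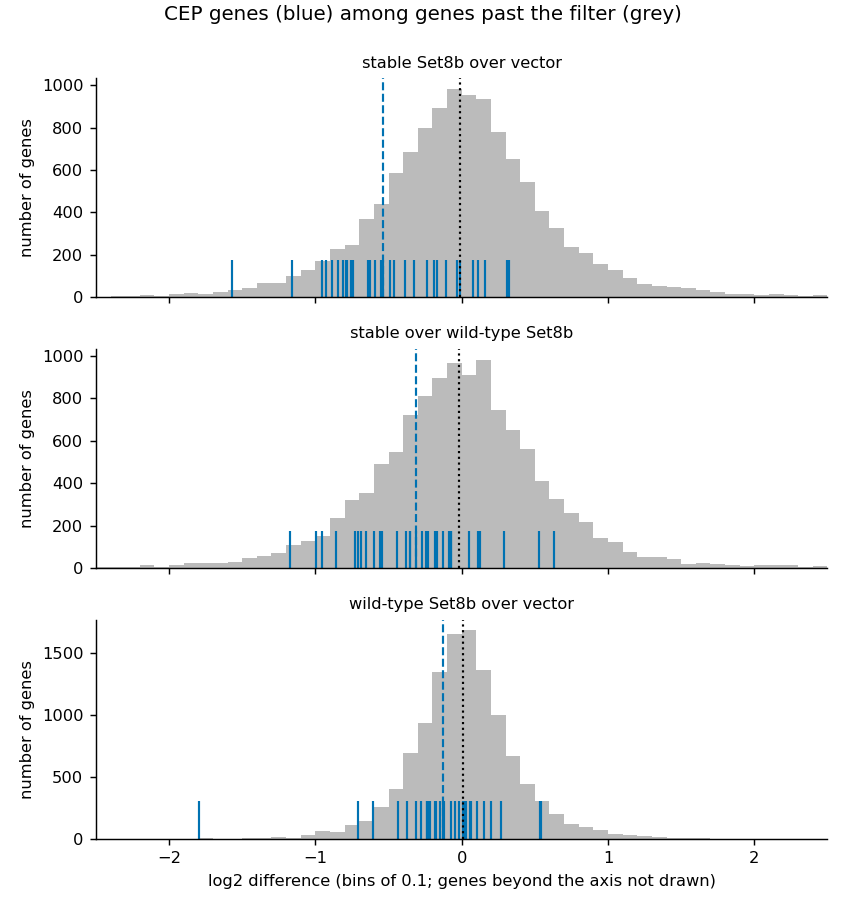
Number of genes past the filter by log2 difference (grey, bins of 0.1) in the 3 comparisons, with each CEP gene as a short blue line, the CEP median dashed and the median of genes past the filter dotted. The CEP median lies at -0.54, -0.31 and -0.13 from top to bottom, beside background medians of -0.01, -0.02 and 0.01.

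Other centrosome genes were read from lists by role. They overlap in function with the members and give no independent support. Of 16 measured partners in centriole assembly 13 lay below 0 for stable Set8b over vector, and 4 of them passed 2-fold. Their median was -0.37, or -0.52 over the 15 past the filter. The shares to read these lists against are those given above for stable Set8b over vector, 46.1% of all genes and 50.6% of those past the filter below 0, and 9.15% and 4.81% at least 2-fold lower. PLK4, the kinase that CEP152 and CEP192 recruit, read 444 on the vector array, 429 on the wild-type array and 216 on the stable Set8b array, 2.05-fold lower. STIL, its substrate in cartwheel assembly, read 1513, 1887 and 736 (2.06-fold lower). MPHOSPH9, a partner of the CCP110 cap, read 679, 566 and 296 (2.29-fold lower), and RTTN read 189, 166 and 89.4 (2.11-fold lower). The 3 MPHOSPH9 probe sets past the filter ranged from -1.20 to -0.48 for stable Set8b over vector. The second PLK4 probe set was at -0.89 there, so neither of these genes passed 2-fold by every probe set. By the brightest probe sets, wild-type was near vector in PLK4 and above it in STIL, whereas in CEP152 and CEP192 it was below. The second PLK4 probe set past the filter was at -0.32 for wild-type Set8b over vector, so the contrast was not settled for PLK4.

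Of 17 measured genes on the list for pericentriolar material and gamma-tubulin 14 lay below 0, with a median of -0.47. Only CCDC14 passed 2-fold, near the background share, and its place on this list does not show that it belongs to that material. CCDC14 read 1249, 1070.4 and 600.5, and PCNT, the main scaffold of the pericentriolar material, read 1653, 1475 and 918 (1.80-fold lower). Of 14 measured genes of the linker and appendages 10 lay below 0. Their median was -0.22, or -0.46 over the 12 past the filter. The 2 that passed 2-fold were NEK2, the kinase that dissolves the linker (2340.3, 1807 and 1096), and the mother centriole protein CNTRL (220.4, 228.5 and 103). Of 13 satellite and ciliogenesis genes 8 lay below 0, with a median of -0.27, and SSX2IP (773, 783 and 363) was the one past 2-fold, near the background share. For stable over wild-type Set8b 5 of these 13 lay below 0 and 8 above, with a median of 0.05. Below 0 in that comparison lay 47.1% of all genes and 51.4% of those past the filter. The median of the linker and appendage list there was -0.003, or -0.125 over its 12 genes past the filter. At least 2-fold lower were 3 of those 12, against 4.8% of genes past the filter. Without probe sets ending in _x_at or _s_at the satellite median over vector was 0.04, so no direction is given for that list. All 7 measured subunits of augmin, which branches microtubules in the spindle, lay below 0, with a median of -0.66. HAUS8 read 282, 194 and 110.3 (2.56-fold lower) and HAUS1 read 2884, 2498 and 1421 (2.03-fold lower). HAUS2 was at 0.47 by another of its probe sets. No gene of these 5 lists was 2-fold higher with stable Set8b than with vector, against 10.3% of all genes and 5.23% of those past the filter.

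**Figure D4:**
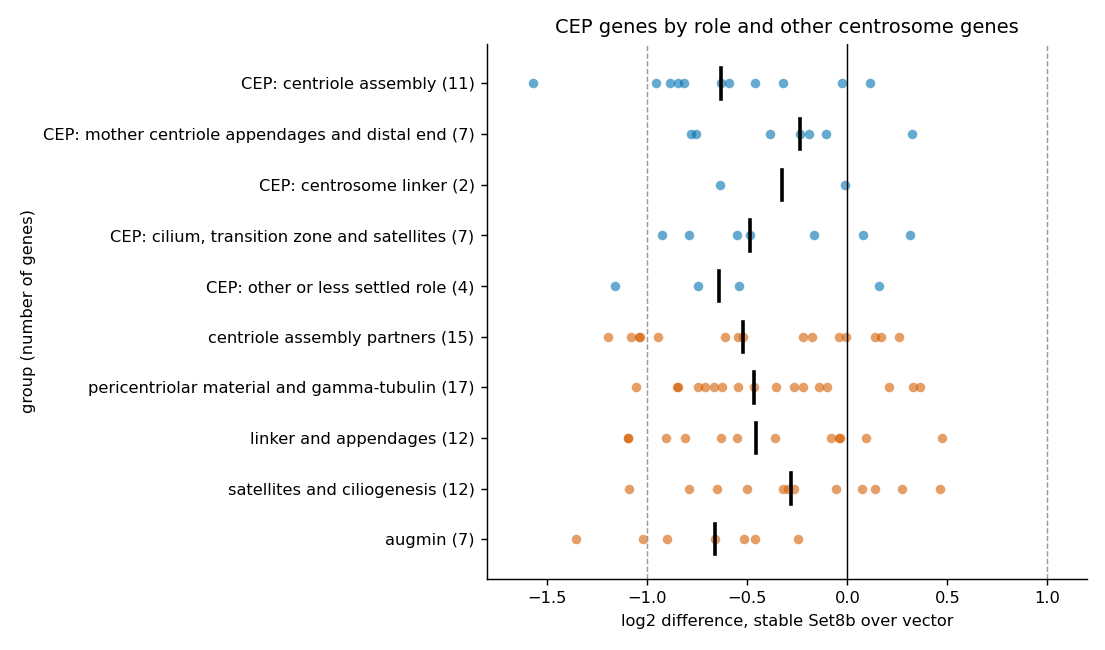
Log2 difference of stable Set8b over vector for the CEP genes by role (blue, all 31) and for other centrosome genes past the filter (orange), with a black bar at each group's median and dashed lines at 2-fold. Every group's median lies left of 0, and the lowest single value is CEP152 at -1.57.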

How the data were processed

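Biotin-labelled total RNA was hybridised to Affymetrix arrays by the authors, per the labels. The file deposited holds an intensity on a linear scale for each of 54675 probe sets per array. The software that made it was not given in the sources used here. Each array has a trimmed mean of 250.0 (2% trimmed at each end), so it had been scaled. The 62 control probe sets were left out, the log2 medians spanned 0.146, and the arrays were quantile normalized. Quantile normalization removes any overall shift between arrays. Signals were floored at the 20th percentile (7.7) and taken to log2. Of the other probe sets 41091 had 1 gene symbol. The filter was the median of their mean log2 (a signal of 51.4). All 31 symbols matched RefSeq (GRCh38.p14) by Entrez identifier. Counts over all genes, and over genes past the filter, stand beside the members' counts. Every member could be named, and from each list up to 4 genes that differed most between stable Set8b and vector, and CDKN1A, MKI67 and KMT5A. HAUS2, genes left below the filter, and the leukocyte and epithelial markers past it were named after their values were seen. The members and lists were chosen with earlier results of these data known. The steps were tested on simulated data. Alternatives covered scaling, floor, filter, choice of probe set, membership and fold. The work was done in Python 3.11.15 (pandas 2.3.3, numpy 2.4.6), with plots by matplotlib 3.10.9.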

Additional observations from a re-analysis of the deposited data

How the results depend on the processing

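Over 10 alternatives the family's median stayed below 0, between -0.63 and -0.36 for stable Set8b over vector, between -0.37 and -0.27 for stable over wild-type and between -0.28 and -0.06 for wild-type over vector. The lowest median over vector came with arrays centred on their medians, and the highest with the mean over probe sets. CEP152 stayed between -1.67 and -1.37 for stable Set8b over vector. Of the 31 members 24 kept their sign in that comparison under every alternative in which they were measured, 24 for stable over wild-type and 13 for wild-type over vector. Counts at 2-fold are small and changed easily. For stable Set8b over vector, 2 members became 4 with arrays centred on their medians, 1 with a floor at the 40th percentile, a floor at 50 or only members past the filter, and 0 among the brightest 25% of probe sets or at 3-fold, where fewer members or larger differences are counted. For stable over wild-type, 1 became 2 with symbols that go on with letters, and 0 without probe sets ending in _x_at or _s_at or at 3-fold. For wild-type over vector, 1 became 0 with either higher floor, with either filter and without those probe sets. At 1.5-fold the counts were 14, 9 and 3. CEP15 reversed for stable Set8b over vector, to 0.18 with the 40th percentile floor, 0.38 with the mean over probe sets and 1.92 without probe sets ending in _x_at or _s_at. Its signals lie below the filter, where arrays give little information. CEP44 turned from -0.89 to 0.11 with the mean over probe sets and to 1.85 without those ending in _x_at or _s_at, which leaves a probe set below the filter. CEP43 turned from -0.39 to 0.31 without them, by a probe set past the filter. Members at least 2-fold higher numbered 0 in each comparison. Without probe sets ending in _x_at or _s_at they became 2, 1 and 1 (stable over vector, stable over wild-type, wild-type over vector). For stable over wild-type 1 was also found with no floor or with the mean over probe sets, and for wild-type over vector 1 with symbols that go on with letters. No paired analysis was possible because each group had 1 array.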

Other observations

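Several genes with related symbols, outside the rule, lay above 0 with stable Set8b over vector. CEP85L, a paralog of CEP85, read 367 on the vector array, 367 on the wild-type array and 595 on the stable Set8b array (0.70), whereas CEP85 was at -0.81 for stable Set8b over vector. CEP170B read 385, 411 and 571 (0.57) by a probe set ending in _x_at. CEP57L1, a paralog of CEP57, was dim and read 64.8, 45.5 and 74.1 (0.19). Probe sets of CEP170, a subdistal appendage protein, also carry the symbol of its pseudogene CEP170P1. The 2 of them past the filter were at 0.15 and 0.18 for stable Set8b over vector, and at 0.50 and 0.54 for stable over wild-type Set8b. CEP55, a midbody protein of cell abscission and not part of the rule, read 2512, 2121 and 1324 (-0.92), with the same order of arrays as CEP152. Whether paralogs differ from the members was not tested.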
